A study of Mus musculus with 3 samples.

Results

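Among the lymphocytes that infiltrated MC38-Ova tumors, a small set of natural killer (NK) cells carried large amounts of the transcripts for granzymes D, E and G. These cells, called Gzm-high NK cells here, were chosen by their transcript counts alone. A member had at least 1 unique molecular identifier (UMI, 1 counted transcript) of *Ncr1*, the gene of the NK receptor NKp46, and at least 20 UMIs of *Gzmd*, *Gzme* and *Gzmg* together. It had no more than 1 UMI each of *Cd3e*, *Cd8b1* and *Rora*, which mark T cells and other innate lymphoid cells, and no more than 3 of the cycling genes *Mki67* and *Top2a* together. In all, 439 cells met the rule, out of 7123 cells that passed the same NK gate without the granzyme threshold, and out of 31943 cells that had 1000 to 6000 genes and under 7.5% mitochondrial UMIs.

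The study injected 250000 MC38-Ova colon tumor cells under the skin of wild-type C57BL/6 Kaede mice. MC38-Ova is the name in the sample labels, while the paper's text names MC38 for its single-cell sequencing. Kaede is a photoconvertible protein, green until it is lit with violet light and red from then on, so that a cell's color records whether it was in the tumor when the light was given. Tumors were lit on day 13 and taken on day 15, so Kaede Green+ (KG+) cells had entered within the last 48 h and Kaede Red+ (KR+) cells had been there for at least that long. Live CD45+ cells were sorted without CD11b+ NK1.1- myeloid cells and split by color into 3 libraries, namely a first and a second Kaede-green library and the Kaede-red library, all from tumors of mice that received an isotype control antibody. The age of these mice, and whether animals were pooled, is not in the labels. With 1 KR+ library, color and library cannot be told apart, and no test between colors was made. The libraries held 87193225, 129438292 and 175848894 UMIs over 10498, 12327 and 11956 cell barcodes. Kaede-green 1 and Kaede-green 2 shared 20 barcodes, and Kaede-red shared 28 and 36 with them, among which were 1 and 1 of the members' barcodes.

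Granzymes are serine proteases that NK cells and cytotoxic T cells store in granules and release onto target cells, where perforin lets them in. Granzymes A and B are the main ones of resting and primed mouse NK cells, while the genes for granzymes C, D, E, F and G lie beside *Gzmb* on chromosome 14 and are known for their expression in strongly stimulated killer cells. *Itga1*, which encodes the integrin CD49a, marks NK cells and type 1 innate lymphoid cells that reside in tissues.

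The values that chose the members are given as a description only. The summed UMIs of the 3 granzymes ranged from 20 to 2587 per member, with a median of 130. *Gzmd* made up 61.4% of these UMIs, *Gzme* 29.1% and *Gzmg* 9.53%. *Gzmd* was the most counted of the 3 in 358 members and *Gzme* in 80, and *Gzmg* was found in only 189 (43.1%). *Gzmg* was also the most uneven, since 1 cell held 92.5% of its UMIs in the Kaede-green 1 members and 1 cell 40.4% in Kaede-green 2. At the threshold, 21 members had 20 to 24 UMIs, with a median of 5 *Ncr1* UMIs and 23393 UMIs in total, and 26 cells of the gate had 15 to 19 UMIs, with a median of 5 *Ncr1* UMIs and 24452.5 in total. The cells on either side of the threshold were thus alike in *Ncr1* and in depth. Background was gauged in B cells, which should lack these granzymes. At least 1 UMI was found in 1.0% of 200 Kaede-green 1 cells, 10.0% of 100 Kaede-green 2 cells and 3 of 7 Kaede-red cells, but no B cell had more than 2 UMIs. The median depths of these B cells were 4013.5, 4840 and 4975 UMIs, against 29055, 29708 and 30048 in the members.

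*Ncr1*, which the rule asked for, was counted at 6 UMIs per member at the median and so is no check of the label. Among NK genes that the rule did not use, *Klrb1c*, the gene of NK1.1, stood at 147, 101 and 122 CPM in the members of the 3 libraries. CPM is the share of all UMIs of the summed cells, scaled as usual. The adaptor *Tyrobp* stood at 2205, 2011 and 2117 CPM. *Klrb1c* and several other NK receptors were lower than in the NK cells that the members are compared with below, while *Tyrobp* did not pass there. *Itga1*, which was not asked of members either, was found in 369 of 439 (84.1%). It was found in 66.7% of the 21 members with 20 to 24 granzyme UMIs and in 76.9% of the 26 cells with 15 to 19. Detection depends on depth, so the share is not read as particular to members. The rule left out other cells with 20 or more UMIs of the 3 granzymes. Of 1315 such cells within the limits on genes and mitochondrial UMIs, 439 were members, 533 had no *Ncr1* UMI and more than 1 of *Cd3e* or *Cd8b1*, 122 missed only the limit on cycling genes and 53 only that on *Rora*. High levels of these granzymes were therefore not limited to NK cells in the tumors. Another 4 cells with 20 or more UMIs passed every other limit of the NK gate but had over 6000 genes.

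**Figure D1:**
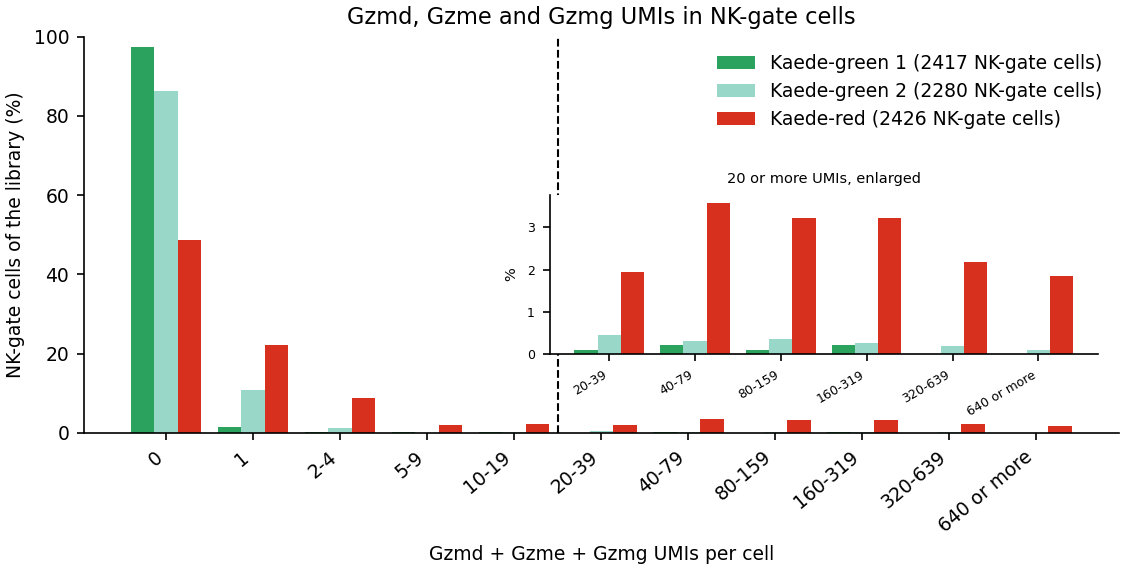
Share of the NK-gate cells of each library (vertical axis, %) by their summed *Gzmd*, *Gzme* and *Gzmg* UMIs (horizontal axis), with the classes of 20 or more enlarged in the inset and the threshold drawn as a dashed line. Bars are libraries, and 16.0% of the Kaede-red cells lie to the right of the line against 0.579% and 1.62% of the Kaede-green cells.

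The color of the libraries was not part of the rule. Members were 14 of 2417 NK-gate cells in Kaede-green 1 (0.579%, 95% exact binomial interval 0.317% to 0.970%), 37 of 2280 in Kaede-green 2 (1.62%, 1.15% to 2.23%) and 388 of 2426 in Kaede-red (16.0%, 14.6% to 17.5%). The intervals cover counting error only. KR+ cells thus made up 88.4% of the members, against 34.1% of the gate and 72.4% of NK-gate cells with 1 to 19 UMIs of the 3 granzymes. Among cells with no UMI of the 3, they made up 37.4% of those with *Itga1* and 18.0% of those without. These classes were set by the granzyme counts themselves, which also depend on depth. The Kaede-red library was also deeper, with a median of 15061.5 UMIs per NK-gate cell against 6004 and 7814. After every cell was thinned to 3000 UMIs, the share of cells with at least 2 UMIs of the 3 granzymes was 0.768%, 1.85% and 18.1%, so the libraries stood in the same order with equal UMIs per cell.

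The genes of the cluster are printed here by the 150 bases before their RefSeq start sites (build GRCm38.p6, minus strand of chromosome 14). *Gzmd*, *Gzme* and *Gzmg* are shown because they chose the members. *Gzmf* and *Gzmc* are the neighbors with the largest rises over the comparison cells among those with enough counts to be tested. *Gzmb* is the member of the cluster that all 439 cells carried but that differed little from the comparison cells. Capitals mark matches on either strand to the RUNX core TGTGGT, the cAMP response element TGACGTCA and the AP-1 site TGANTCA.
*Gzmd*, chr14:56132594-56132743: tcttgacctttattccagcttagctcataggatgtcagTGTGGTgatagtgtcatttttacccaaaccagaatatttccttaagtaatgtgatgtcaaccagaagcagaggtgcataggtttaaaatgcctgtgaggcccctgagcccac
*Gzme*, chr14:56120626-56120775: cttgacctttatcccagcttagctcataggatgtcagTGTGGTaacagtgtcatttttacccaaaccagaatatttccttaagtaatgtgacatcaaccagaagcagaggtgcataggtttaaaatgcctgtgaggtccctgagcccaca
*Gzmg*, chr14:56159580-56159729: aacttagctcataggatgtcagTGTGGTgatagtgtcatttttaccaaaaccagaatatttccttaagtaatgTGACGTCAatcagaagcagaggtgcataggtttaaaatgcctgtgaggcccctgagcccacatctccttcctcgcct
*Gzmf*, chr14:56211408-56211557: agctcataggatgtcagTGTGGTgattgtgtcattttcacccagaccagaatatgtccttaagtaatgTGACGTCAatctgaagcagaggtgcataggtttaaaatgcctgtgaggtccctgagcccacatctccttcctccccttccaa
*Gzmc*, chr14:56234658-56234807: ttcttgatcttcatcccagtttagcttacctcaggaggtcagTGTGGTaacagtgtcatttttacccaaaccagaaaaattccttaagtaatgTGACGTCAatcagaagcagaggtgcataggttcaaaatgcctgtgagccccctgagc
*Gzmb*, chr14:56262335-56262484: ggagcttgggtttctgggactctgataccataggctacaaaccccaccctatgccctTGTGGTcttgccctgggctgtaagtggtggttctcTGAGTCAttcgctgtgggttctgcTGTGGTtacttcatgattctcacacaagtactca

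Over 250 bases the RUNX core was matched 2 times in each of the 6 sequences. Of 32851 RefSeq promoters of the same length, 14.0% hold at least 1 match, and the share with 2 was not counted. The sequences other than that of *Gzmb* were 71.5% to 94.8% identical to each other, so their matches are not separate observations. The cAMP response element was matched in *Gzmg*, *Gzmf* and *Gzmc* (1.55% of promoters) and the AP-1 site in *Gzmb* (6.75%), and the letters AGGTGTGA (T-box, 1.12%) and TTCNNNGAA (STAT, 7.02%) were in none of the 6. *Gzmd* and *Gzme* were 94.8% identical over these upstream bases, and either was 47.3% to 48.5% identical to *Gzmb*. The likeness also bears on counting. Transcripts of *Gzmd* and *Gzme* were 90.4% identical, but only 6 of 410 stretches of 91 bases (1.46%), which is shorter than the sequenced reads, were shared over their last 500 bases, and no stretch was shared by any other pair of the 6. *Gzmf* overlaps the antisense gene *Gm4022*, whose reads could be told apart only by strand.

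Members were compared with *Itga1*+ NK cells of the same gate without any UMI of the 3 granzymes, which numbered 284, 324 and 364 in the 3 libraries. UMIs were summed per library and group, given as CPM, and tested by edgeR's quasi-likelihood test with the library as a block, so each comparison rests on 6 sums. Of 9499 genes tested, 603 were higher in members (6.35%) and 746 lower (7.85%) at an adjusted p under 0.05. These counts were 285 and 324 with DESeq2, and 295 and 446 without Kaede-green 2. The median log2 fold change of all genes was -0.02. The counts of called genes in each list below are to be set beside these shares of 6.35% and 7.85%.

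The groups differed widely in depth, and this bears on every count below. Members had a median of 29935 UMIs and 4304 genes per cell, and the *Itga1*+ cells 10149 UMIs and 2592.5 genes. A count of at least 20 UMIs is reached more readily in a deep cell, and a count of 0 in a shallow one, so the rule itself selected for depth. Whether the difference was of RNA content, capture or both cannot be told apart. The same comparison was then made in 3 other ways, set beside it. With each cell thinned to 3000 UMIs, 146 genes were higher (2.06% of 7073) and 311 lower (4.4%), and 1217 of 1229 genes called with all UMIs and tested here had the same sign. With cells of 10000 to 30000 UMIs only, 71 and 66 genes passed, and 1257 of 1288 had the same sign. With cells of 20000 to 30000 UMIs only, a limit added after the data were seen, medians were 26607, 24638.5 and 25404 UMIs in members and 22841, 22129 and 24189 in *Itga1*+ cells. Then 7 genes were higher and 2 lower of 5449 tested (296 at an unadjusted p under 0.05), and 819 of 1086 (75.4%) kept their sign. The last check rests on 7, 12 and 157 members and 19, 29 and 93 *Itga1*+ cells.

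The 9 genes that passed among cells of 20000 to 30000 UMIs are those past the threshold at nearly equal depth, in a window that held only 7 and 12 KG+ members. Higher were *Gzmf* (log2 fold change 2.92 ± 0.39, SE), *Ccnb2*, a mitotic cyclin (1.93 ± 0.32, with KG+ values that rest on single cells), *Tmsb15a*, an actin-binding thymosin (1.63 ± 0.27), the metallothionein *Mt1* (1.56 ± 0.20), the membrane restriction factor *Ifitm2* (1.09 ± 0.10), *Sat1*, which acetylates polyamines (0.86 ± 0.15), and *Gzmc* (0.67 ± 0.08). Lower were the replication helicase subunit *Mcm7* (-1.07 ± 0.19) and *Ptma*, which encodes prothymosin alpha (-0.44 ± 0.07). *Sat1*, *Mcm7* and *Ptma* were named after their values were seen, and with all cells *Mcm7* and *Ptma* did not pass (adjusted p = 0.482 and 0.574). Other differences were smaller there than with all cells and did not pass, although some were still larger than that of *Gzmc*, among them those of *Ccl5* (-1.26 ± 0.39, adjusted p = 0.526), *Ccdc184* (0.98 ± 0.36, adjusted p = 0.754), *Mt2* (0.97 ± 0.33, adjusted p = 0.652), *Tnfsf11* (0.86 ± 0.33, adjusted p = 0.823) and *Myo10* (0.82 ± 0.22, adjusted p = 0.386). *Ccnb2* belongs with the cycling genes that the rule limited, and without Kaede-red neither it nor *Sat1* passed (adjusted p = 0.0687 and 0.0828).

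Of the granzymes that the rule did not use, *Gzmc* and *Gzmf* rose with *Gzmd*, *Gzme* and *Gzmg*, while *Gzma* fell. *Gzmc* stood at 32549.7, 25971 and 27803 CPM in the members (first Kaede-green, second Kaede-green and Kaede-red library, the order used throughout) and at 5249.7, 4452 and 11168 in *Itga1*+ cells. All 3 member sums lay above all 3 *Itga1*+ sums, by a log2 fold change of 2.28 ± 0.17 (adjusted p = 2.88e-10). Each member held *Gzmc* even after thinning to 3000 UMIs (100% of the members of each library), where 40.4% to 83.5% of the *Itga1*+ cells of a library did and 4.42%, 19.2% and 71.4% of the B cells. *Gzmf* stood at 395, 1668 and 3747 CPM in members and at 28.3, 16.7 and 374 in *Itga1*+ cells (log2 fold change 4.49 ± 0.33, adjusted p = 2.13e-10). The *Gzmf* values of the KG+ members rest on few cells, since a single cell held 51.5% of the UMIs in Kaede-green 1 and 50.8% in Kaede-green 2. Without Kaede-green 2 the log2 fold change was 3.58, and without Kaede-red 5.55. *Gzmn*, which lies between *Gzmg* and *Gzmf*, had too few counts for the main test. It had 30 UMIs in 27 of 388 Kaede-red members, with 0 in the KG+ members and 0 in *Itga1*+ cells. Any rise of *Gzmn* thus rests on the Kaede-red library and is not read as a tested difference.

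*Gzma*, the granzyme of resting NK cells, went the other way, at 3175, 2477 and 2942 CPM in members and 7282, 7530.1 and 3992 in *Itga1*+ cells (log2 fold change -0.97 ± 0.13, adjusted p = 8.19e-06). That difference was -0.73 among cells of 10000 to 30000 UMIs (adjusted p = 0.123) and -0.10 among those of 20000 to 30000. *Gzmb* stood at 4989.7, 4153 and 4650.3 CPM against 3838, 3709.8 and 4097, a small rise (0.35 ± 0.10, adjusted p = 0.0199) that did not pass without Kaede-green 1 (adjusted p = 0.369) or without Kaede-green 2 (adjusted p = 0.320).

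Of 19 genes of granules and target killing, 7 were higher in members and 1 lower, and the median log2 fold change was 0.01. *Prf1*, the gene of perforin, stood at 1117, 1335 and 1088 CPM in members and 721, 698 and 779 in *Itga1*+ cells (log2 fold change 0.79 ± 0.11, adjusted p = 8.22e-06). With cells of 20000 to 30000 UMIs it was -0.10 ± 0.12, so the perforin difference was not seen at nearly equal depth. *Hopx* (0.68), the cysteine protease inhibitor *Cst7* (0.64) and the lysosomal protease *Ctsd* (0.64) were higher, and *Fasl*, which encodes the death ligand, was lower (-0.60 ± 0.13, adjusted p = 0.00212; 0.0003 among cells of 20000 to 30000 UMIs). The granule core proteoglycan *Srgn* (0.01 ± 0.10, adjusted p = 0.969) and *Nkg7* (-0.28 ± 0.10, adjusted p = 0.0533) did not pass. Of 5 serpins, which inhibit granzymes and related proteases, 2 were higher and 1 lower. *Serpinb9*, the inhibitor of granzyme B and the most abundant of them, fell by 0.36 ± 0.10 (adjusted p = 0.0185), but was higher by 0.12 among cells of 20000 to 30000 UMIs. *Serpinb9b* rose by 0.52 ± 0.14 (adjusted p = 0.0108). Neither of these 2 serpins passed without Kaede-green 2. *Serpinb6a* was higher in each library at 51.4, 56.3 and 69.1 CPM against 26.5, 17.5 and 30.1 (1.37 ± 0.17, adjusted p = 1.11e-06).

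**Figure D2:**
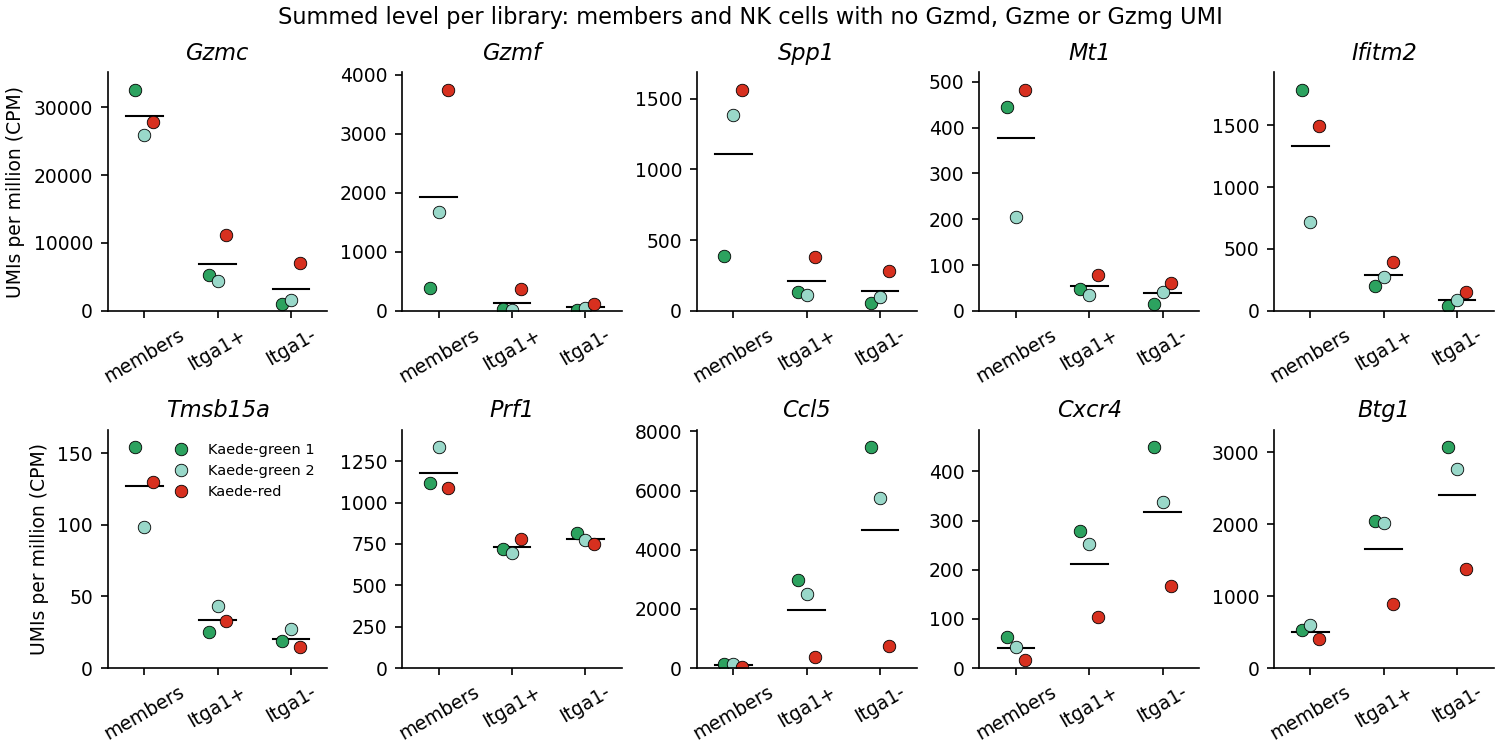
Levels (CPM, vertical axes from 0) of 10 genes in the summed cells of each library, for members, *Itga1*+ cells and *Itga1*- cells without *Gzmd*, *Gzme* or *Gzmg* UMIs. Points are libraries and lines the mean of the 3; *Gzmc*, *Gzmf*, *Spp1*, *Mt1*, *Ifitm2* and *Tmsb15a* of the members lie above and *Ccl5*, *Cxcr4* and *Btg1* below every *Itga1*+ and *Itga1*- value.

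Metallothioneins, small proteins that bind zinc and other metals, were the fixed group with the largest median difference. *Mt1* stood at 446, 204 and 483 CPM in members and 48.3, 34.4 and 79.0 in *Itga1*+ cells (log2 fold change 2.87 ± 0.13, adjusted p = 1.15e-14). *Mt2* stood at 42.0, 38.9 and 84.6 CPM against 4.30, 7.78 and 14.9 (2.64 ± 0.20, adjusted p = 2.75e-10). The zinc exporter *Slc30a1*, which is driven by the same metal-sensing factor, did not pass (-0.61 ± 0.31, adjusted p = 0.212). *Mt2* was 0.97 ± 0.33 among cells of 20000 to 30000 UMIs (adjusted p = 0.652).

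Interferon-stimulated genes divided by family. Of 21 tested, 13 were lower in members and 3 higher, and the 3 were *Ifitm1*, *Ifitm2* and *Ifitm3*, neighboring genes for membrane proteins that block virus entry. *Ifitm2* stood at 1785, 715 and 1492 CPM in members and 196, 271 and 394 in *Itga1*+ cells (log2 fold change 2.25 ± 0.19, adjusted p = 1.96e-09). *Ifitm3* rose by 1.13 ± 0.13 (adjusted p = 3.56e-07) and *Ifitm1* by 1.44 ± 0.19 (adjusted p = 4.11e-06), although *Ifitm1* was -0.29 among cells of 20000 to 30000 UMIs and 1 cell held 36.4% and 60.2% of its UMIs in the members of the 2 Kaede-green libraries. Lower were among others *Oasl2* (-1.87 ± 0.22) and *Ifit3* (-1.82 ± 0.19), which belong to the antiviral response to type I interferon. The list's median was -0.61 with all cells, -0.16 with cells of 10000 to 30000 UMIs and -0.05 with 20000 to 30000.

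Among 15 chemokines and cytokines, 2 were higher and 6 lower. *Spp1*, which encodes osteopontin, stood at 390.1, 1382 and 1562 CPM in members against 132, 114 and 381 (log2 fold change 2.53 ± 0.21, adjusted p = 1.96e-09). Without Kaede-green 2 its log2 fold change was 1.92, and among cells of 20000 to 30000 UMIs it was 0.70 ± 0.27 (adjusted p = 0.823). *Ccl5*, a chemokine that draws T cells and dendritic cells, had the lowest level relative to *Itga1*+ cells of the list, at 128, 127 and 25.5 CPM against 2961, 2504 and 384 (-4.10 ± 0.13, adjusted p = 6.50e-19). After thinning, 42.9%, 45.9% and 5.41% of members held a *Ccl5* UMI, beside 30.9%, 58.6% and 14.3% of B cells and 77.0%, 79.3% and 33.8% of *Itga1*+ cells. The members' share was above that of the B cells in the first Kaede-green library and under it in the others, and how much of the *Ccl5* in members was background was not tested. *Ccl4* (-2.07 ± 0.15, adjusted p = 1.42e-10) and *Ccl3* (-2.88 ± 0.39, adjusted p = 5.59e-06; -2.15 without Kaede-green 2), which attract the same kinds of cell, fell too, but *Ccl4* was -0.22 ± 0.31 among cells of 20000 to 30000 UMIs. *Xcl1*, the NK cell chemokine for cross-presenting dendritic cells, did not pass (-0.26 ± 0.13, adjusted p = 0.215). *Ifng* stood at 63.1, 31.1 and 48.3 CPM against 118, 137 and 55.8 and fell by 0.79 on the log2 scale (adjusted p = 0.00750), but -0.36 without Kaede-green 2 did not pass (adjusted p = 0.312), and among cells of 20000 to 30000 UMIs it was 0.031. The other gene that rose, *Ccl1*, rests on single cells, which held 91.7% and 93.7% of its UMIs in the 2 KG+ libraries.

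Genes that guide where NK cells go and stay were mostly lower. Of 21 genes of residency and egress, 11 were lower and 2 higher. The chemokine receptor *Cxcr4* stood at 63.1, 43.7 and 15.5 CPM in members and at 279, 253 and 103 in *Itga1*+ cells (log2 fold change -2.46 ± 0.14, adjusted p = 2.36e-12). *Itgam*, which encodes CD11b of circulating NK cells, was counted at 0, 0 and 0.495 CPM in members against 20.8, 10.8 and 3.25. A count of 0 in the members allows up to 7.01 CPM in Kaede-green 1 and 2.91 in Kaede-green 2. *Itga2*, which encodes CD49b, fell by 1.30 ± 0.23 (adjusted p = 1.94e-04), the egress receptor *S1pr1* by 2.01 ± 0.40 (adjusted p = 8.10e-04) and its activator *Klf2* by 1.61 ± 0.19 (adjusted p = 9.56e-07). Among cells of 20000 to 30000 UMIs *Klf2* was instead higher by 0.30 ± 0.31, which did not pass. *Ccr2*, a receptor for monocyte chemokines, rose by 0.65 ± 0.11 (adjusted p = 1.51e-04). *Cxcr6*, a residency marker, was at 0, 10.7 and 7.84 CPM against 7.52, 10.00 and 7.54 and did not pass (-0.02 ± 0.33, adjusted p = 0.983).

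Of 22 NK receptors and adaptors, 10 were lower and 1 higher. *Klrb1c*, the gene of NK1.1, stood at 147, 101 and 122 CPM against 338, 285 and 236 (log2 fold change -1.08 ± 0.12, adjusted p = 3.19e-07). The one that rose was *Klrg1*, an inhibitory receptor of mature NK cells, at 44.4, 26.2 and 41.9 CPM against 19.3, 14.7 and 17.8 (1.22 ± 0.18, adjusted p = 3.10e-05), although 1 cell held 52.6% and 37.0% of its UMIs in the members of the 2 Kaede-green libraries. The signaling adaptors *Tyrobp* (0.02 ± 0.10, adjusted p = 0.956) and *Fcer1g* (-0.10 ± 0.10, adjusted p = 0.551) and the activating receptor *Klrk1* (-0.26 ± 0.11, adjusted p = 0.0991) did not pass. Among 21 inhibitory and activation receptors, 5 rose and 5 fell. The costimulatory receptor *Tnfrsf9* rose by 0.86 ± 0.11 (adjusted p = 2.76e-06) and the checkpoint gene *Ctla4* by 0.66 ± 0.17 (adjusted p = 0.0102), while *Cd7* (-2.51 ± 0.20, adjusted p = 6.93e-10) and *Cd27* (-1.29 ± 0.15, adjusted p = 8.99e-07), a marker of less mature NK cells, fell.

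No transcription factor of the 27 tested was higher, and 10 were lower. *Ahr*, the aryl hydrocarbon receptor, stood at 7.01 to 9.71 CPM in the 3 libraries against 40.8, 39.4 and 19.7 (log2 fold change -1.63 ± 0.22, adjusted p = 6.03e-06). *Maf* fell by 1.35 ± 0.23 (adjusted p = 1.31e-04), but was higher by 0.12 among cells of 20000 to 30000 UMIs. The T-box factors that set NK identity did not pass, with *Eomes* at -0.36 ± 0.13 (adjusted p = 0.0648) and *Tbx21* at 0.14 ± 0.14 (adjusted p = 0.578). Immediate early genes, which are switched on within minutes of stimulation and also by tissue digestion, were lower for 15 of 23 and higher for none. *Btg1*, which restrains proliferation, stood at 523, 593 and 401 CPM against 2051, 2022 and 896 (-1.51 ± 0.12, adjusted p = 8.21e-10), and *Fos*, *Junb*, *Dusp1* and *Zfp36* fell by 0.95 to 1.52. Of 26 genes of cytokine receptors and their signaling, 16 were lower and 1 higher. The one that rose was *Il2ra*, the high-affinity chain of the interleukin-2 receptor (0.74 ± 0.19, adjusted p = 0.00747; adjusted p = 0.190 without Kaede-green 2), and *Socs3*, a feedback inhibitor of cytokine signaling, fell by 1.34 ± 0.14 (adjusted p = 1.87e-07).

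With all cells, most tested genes of glycolysis and hypoxia, and of the endoplasmic reticulum and secretion, were higher in members. Of 23 genes of glycolysis and hypoxia, 14 rose and none fell, among them *Ldha*, lactate dehydrogenase, at 1126, 1009 and 1019 CPM against 668, 571 and 833 (log2 fold change 0.72 ± 0.11, adjusted p = 5.81e-05; -0.025 among cells of 20000 to 30000 UMIs). The lactate exporter *Slc16a3* (1.15 ± 0.18), *Pgk1* (1.04 ± 0.12) and *Ero1l* (0.96 ± 0.15) rose more. Of 31 genes of the endoplasmic reticulum and secretion, 19 rose and 1, *Herpud1*, fell (-0.87 ± 0.19, adjusted p = 0.00155). *P4hb*, a disulfide isomerase, stood at 234, 228 and 192 CPM against 117, 146 and 134 (0.78 ± 0.12, adjusted p = 3.84e-05). Of 77 cytosolic ribosomal protein genes, 19 rose, but 66 did without Kaede-red and 1 without either KG+ library. Their summed level was higher in members of the Kaede-green libraries (301819 and 305277 CPM against 265344 and 270781) and lower in those of Kaede-red (311047 against 325624), a difference between colors that was not tested.

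These group differences were much smaller between cells of like depth. Among cells of 20000 to 30000 UMIs the median log2 fold change went from 0.63 to -0.04 for glycolysis and hypoxia, from 0.40 to 0.05 for the endoplasmic reticulum, from -0.51 to -0.04 for residency and egress, from -0.56 to -0.03 for cytokine receptors, from -0.36 to 0.14 for transcription factors, from -0.27 to 0.09 for NK receptors and from -0.61 to -0.07 for immediate early genes. No gene of these 7 groups passed there. Thinning, which equalizes the UMIs taken from each cell but not the cells compared, left each of these medians on its side of 0 (0.75, 0.35, -0.76, -0.75, -0.52, -0.46 and -1.10 in the same order). Depth moved with all of these groups, and its part in them was not tested beyond these values.

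**Figure D3:**
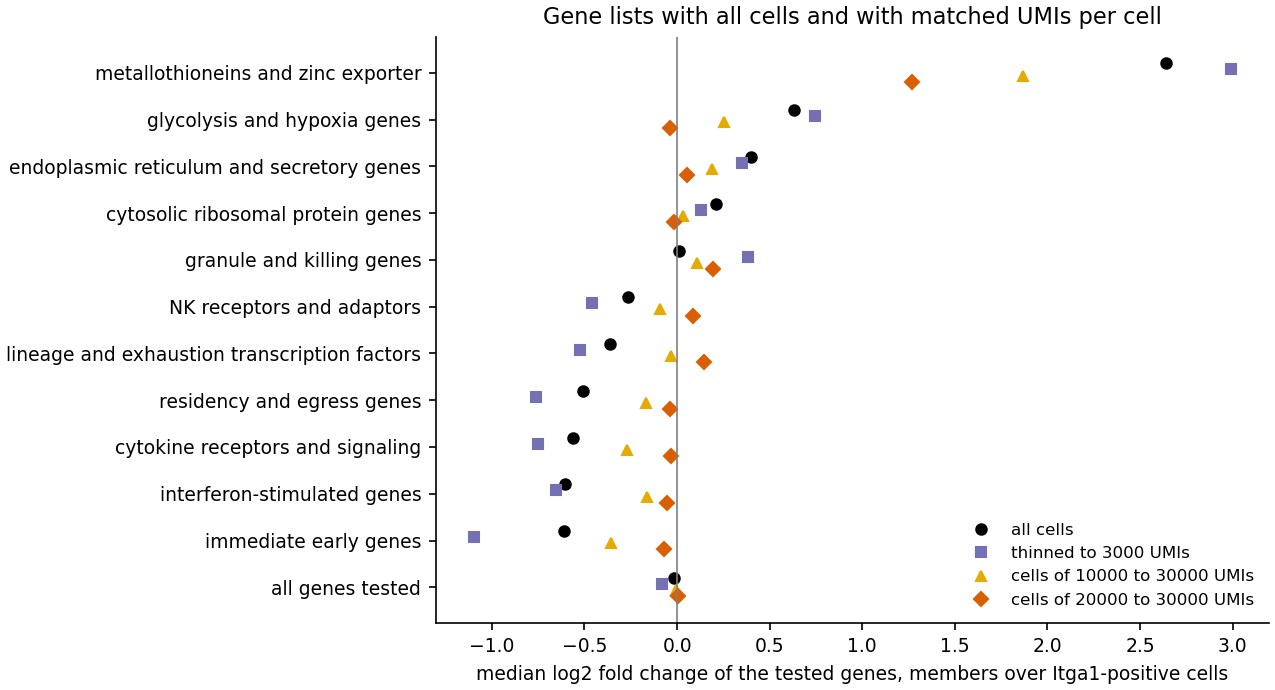
Median log2 fold change of members over *Itga1*+ cells (horizontal axis) for 11 gene lists and for all genes tested, with all cells (circles), thinned cells (squares), cells of 10000 to 30000 UMIs (triangles) and cells of 20000 to 30000 UMIs (diamonds). The diamonds lie between -0.07 and 0.19 for all lists but the metallothioneins and zinc exporter, whose median over the 2 genes tested is 1.27.

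Outside the fixed lists, genes with a mean of at least 20 CPM in a group were named by the size of their change. The 12 with the largest rise were *Ccdc184*, *Dixdc1*, *Myo10*, *Tnfsf11*, *Gpr141*, *Mest*, *Prxl2a*, *Tmsb15a*, *Gipc2*, *Tspan31*, *Igflr1* and *Avil*, with log2 fold changes of 2.70 down to 1.63. In the 14 Kaede-green 1 members 1 cell held at least 50% of the UMIs of *Ccdc184*, *Dixdc1*, *Mest* and *Avil*, and in Kaede-green 2 53.3% of *Mest* and 46.7% of *Avil*. *Avil* was -0.19 among cells of 20000 to 30000 UMIs. *Tnfsf11*, which encodes the cytokine RANKL, stood at 65.4, 60.2 and 60.7 CPM in members and 7.16, 15.0 and 16.1 in *Itga1*+ cells (2.24 ± 0.20, adjusted p = 5.47e-09). *Myo10*, a myosin of filopodia, stood at 70.1, 78.7 and 78.5 CPM against 15.4, 9.44 and 23.3 (2.27 ± 0.20, adjusted p = 3.93e-09). *Tmsb15a* stood at 154, 98.1 and 129.8 CPM against 25.1, 43.0 and 32.9 (1.97 ± 0.17, adjusted p = 4.99e-09).

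The 12 largest falls were those of *Il1b*, *Adgre5*, *Hes1*, *Mirt1*, *Lyst*, *Dhrs3*, *Abcg1*, *Arhgap26*, *Ipcef1*, *Pde2a*, *Ifi208* and *Mxd1*, from -4.16 to -1.65. *Adgre5*, which encodes the adhesion receptor CD97, stood at 25.7, 38.9 and 25.1 CPM in members against 239, 179 and 87.4 (-2.05 ± 0.16, adjusted p = 6.29e-10). *Hes1*, a Notch target, stood at 28.0, 13.6 and 16.7 CPM against 97.0, 95.8 and 64.1 (-2.02 ± 0.17, adjusted p = 3.25e-09), and *Lyst*, needed for the sorting of lytic granules, at 11.7, 9.71 and 6.60 CPM against 50.1, 61.1 and 23.6 (-1.98 ± 0.21, adjusted p = 1.46e-07). *Il1b*, a cytokine of myeloid cells, came from 26.9, 161 and 0.856 CPM in *Itga1*+ cells and did not pass without Kaede-green 2 (-1.60, adjusted p = 0.109).

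Markers of other cell types moved with some of these results. The 15 myeloid markers summed to 189, 151 and 74.0 CPM in members and to 1110, 884 and 89.4 CPM in *Itga1*+ cells, although CD11b+ NK1.1- cells had been sorted out. *Cd74* was the most abundant of them in *Itga1*+ cells, with a mean of 310 CPM, and the neutrophil genes *S100a8* and *S100a9* were at 0 in both groups. Of 10 tested, 5 were lower in members, so the KG+ *Itga1*+ cells held more myeloid transcripts than the members did, and the part of this in the fall of *Il1b* and other genes was not tested. The 11 T cell markers summed to 986, 920 and 897 CPM in members and 1109, 1252 and 958 CPM in *Itga1*+ cells, with *Trbc1* the most abundant in both. Over 17 alternatives, *Trac* had log2 fold changes of -1.06 to -0.12 and was past the threshold in 13. *Trbc2* was past it in 8 and *Cd3d* in 5, both with negative values throughout, and *Trbc1* and *Cd3g* in 0. The 8 B and plasma cell markers summed to 241, 190 and 238 CPM against 125, 142 and 170, nearly all of it *Ighm* (means of 219.8 and 132 CPM), while *Ms4a1* and *Jchain* were at 0 in members, and the part of B cell RNA in the *Ighm* level was not tested. The 6 mast cell and basophil markers summed to at most 5.94 CPM in members, and none passed the filter on low counts. *Mcpt8* is a serine protease gene of basophils that lies on chromosome 14 near *Gzme*. It stood at 0, 1.94 and 5.86 CPM in members against 0, 0.555 and 0, with 71 UMIs in 37 of 388 Kaede-red members. Any rise of *Mcpt8* thus rests on the Kaede-red library and is not read as a tested difference. The 10 markers of tumor and stroma summed to 93.4, 79.7 and 96.9 CPM against 80.6, 78.3 and 70.6, most of it *Pecam1*, with the epithelial keratins *Krt8* and *Krt19* at 0 in members. Of the 3 tested, *Cdh1*, the gene of E-cadherin, was higher in members, at 23.4, 27.2 and 27.7 CPM against 5.01, 8.89 and 12.5 (log2 fold change 1.48 ± 0.23, adjusted p = 4.45e-05). Of 9 type 1 innate lymphoid cell genes tested, 1 rose in members, beside 6.35% of all genes tested. It was *Tnfsf10*, the gene of the death ligand TRAIL (0.64 ± 0.17, adjusted p = 0.0125, and adjusted p = 0.130 without Kaede-green 2).

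Genes of the cell cycle beyond those in the rule were also counted. Of 23 tested, 5 rose and 2 fell. *Ccnb2* stood at 14.0, 12.6 and 28.5 CPM in members against 2.51, 6.11 and 10.1, with all 13 UMIs of the second Kaede-green library in 1 cell and 83.3% of those of the first in 1 cell. *Ube2c*, needed for the exit from mitosis, stood at 11.7, 16.5 and 19.3 against 3.58, 4.17 and 8.39 (log2 fold change 1.52 ± 0.28, adjusted p = 3.47e-04). *Tubb5* fell by 0.50 ± 0.12 (adjusted p = 0.00453; adjusted p = 0.0843 without Kaede-red). Of 10 survival genes, 2 rose and 3 fell, with *Bcl2* at 206, 207 and 178 CPM against 399.6, 329 and 287 (-0.65 ± 0.11, adjusted p = 1.31e-04; 0.055 among cells of 20000 to 30000 UMIs) and its antagonist *Bcl2l11* at -0.71 ± 0.11 (adjusted p = 6.94e-05). Of the 13 genes of the mitochondrial genome, 1 passed. Over all genes tested, 6.35% were higher and 7.85% lower, so no result is read from that count.

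The same members were then set against NK cells without any UMI of *Itga1* or of the 3 granzymes (2070, 1641 and 815 cells, median 6853.5 UMIs). This comparison shares the member sums with the first, so the values are given side by side and not as a second line of support. Of 11397 genes, 1157 were higher in members (10.2%) and 1681 lower (14.7%). *Gzmc* was 3.78 ± 0.17 higher on the log2 scale, *Ifitm2* 4.01 ± 0.14, *Spp1* 3.15 ± 0.14 and *Tnfsf11* 3.93 ± 0.21, beside 2.28, 2.25, 2.53 and 2.24 against the *Itga1*+ cells. *Ccl5* stood at 7466, 5754 and 734 CPM in the *Itga1*- cells and was lower in members (-5.29 ± 0.16, adjusted p under 0.05). *Eomes*, which did not pass against *Itga1*+ cells, stood at 261, 247 and 125 CPM in the *Itga1*- cells and was lower in members (-1.04 ± 0.14, adjusted p = 3.59e-12). *Gzmb* was at 5575, 4842 and 4448 CPM in the *Itga1*- cells and did not pass (-0.05 ± 0.13, adjusted p = 0.850). By the mean of the 3 libraries, the *Itga1*+ cells lay between the *Itga1*- cells and the members for *Gzmc*, *Gzmf*, *Spp1*, *Mt1*, *Ifitm2*, *Tmsb15a*, *Ccl5*, *Cxcr4* and *Btg1*, but not for *Prf1*, which stood at 815, 773 and 749.6 CPM in *Itga1*- cells. Among cells of 20000 to 30000 UMIs, 38 genes were higher and 39 lower.

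How other genes stood along the measure that chose the members was followed in Kaede-red, the library with most of them. Its NK-gate cells with 0, 1 to 4, 5 to 19, 20 to 99 and 100 or more UMIs of the 3 granzymes numbered 1179, 756, 103, 160 and 228. Their median depths of 10824, 14276.5, 24502, 26378 and 32975 UMIs rose along the steps as well. *Gzmc* stood at 8639, 12112, 21726, 23793 and 29990.4 CPM in this order and *Mt1* at 68.3, 117, 257, 316 and 574. *Gzmf* was at 220.5 and 222 CPM in the first 2 steps and at 1559, 1586 and 4925 in the others. *Ccl5* stood at 598, 384, 73.5, 24.5 and 26.0 CPM. The largest change of *Ccl5* thus lay between 1 to 4 and 5 to 19 UMIs, under the threshold of membership. For *Gzmf*, cells with 5 to 19 and with 20 to 99 UMIs stood at like levels and those with 100 or more apart.

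**Figure D4:**
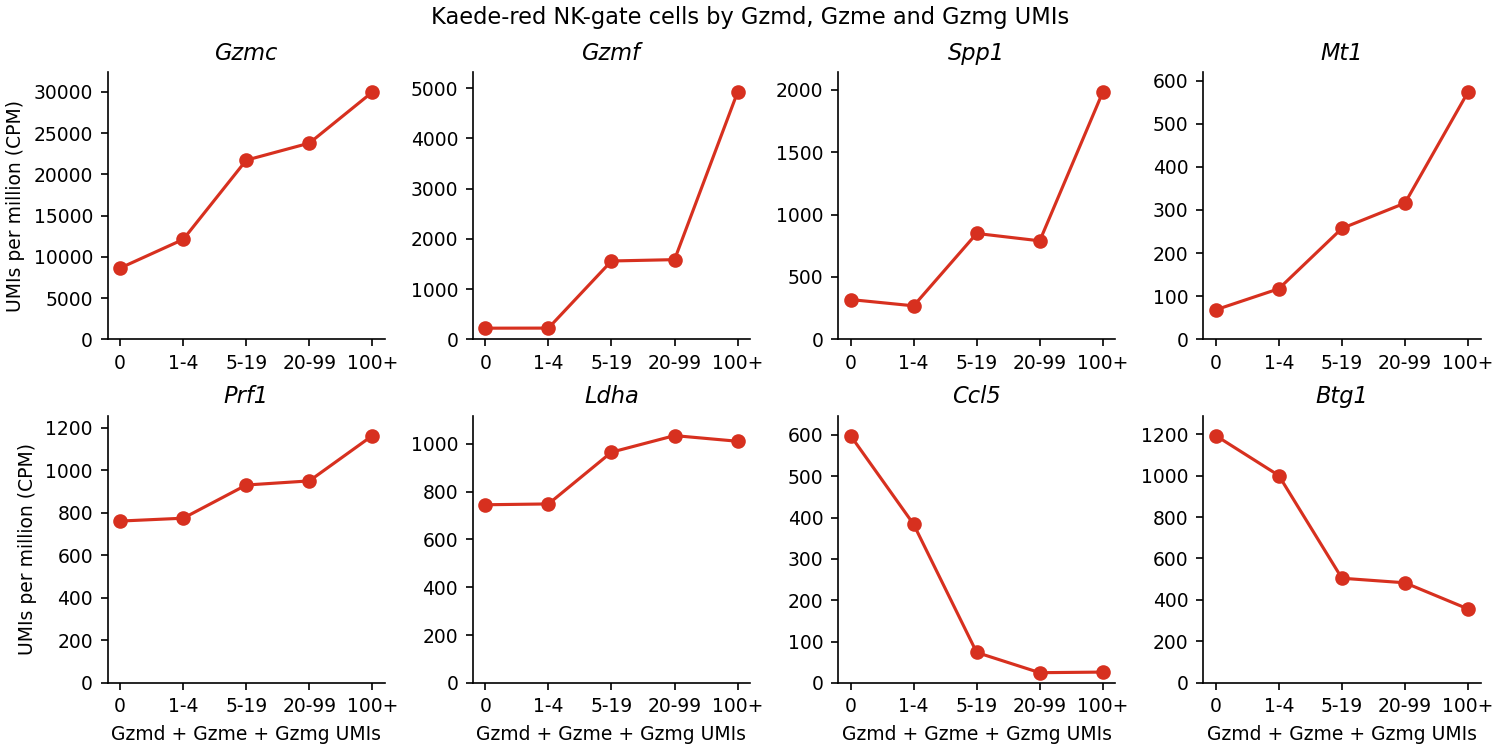
Levels (CPM, vertical axes from 0) of 8 genes in the Kaede-red NK-gate cells, grouped by their summed *Gzmd*, *Gzme* and *Gzmg* UMIs (horizontal axis, 5 steps). Points are sums over the cells of 1 library and carry no replicate error; *Ccl5* goes from 598 to 26.0 CPM and *Mt1* from 68.3 to 574 from the first step to the last.

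Last, the members of the 3 libraries were compared with each other, as values without a test. Of 323 named genes outside the rule with at least 50 UMIs in the members of at least 1 library, 95 lay farther from both Kaede-green libraries, on 1 side, in Kaede-red than these lay from each other, 26 of them higher in Kaede-red. That count has no reference value here, and no color difference is read from it. The genes given were chosen after their values were seen, and the Poisson intervals cover counting error only. *Ccl5* was at 25.5 CPM in KR+ members (95% Poisson interval 22.7 to 28.5) against 128 (96.8 to 167) and 127 (106 to 151) in KG+ members, of which 1 cell held 34.5% in the first Kaede-green library. The share of thinned B cells with a *Ccl5* UMI was 30.9%, 58.6% and 14.3% in the 3 libraries, the last of 7 cells, and the part of background in the difference was not tested. *Cxcr4*, *Vegfa*, the gene of vascular endothelial growth factor, and *Ikzf2*, the gene of the transcription factor Helios, were lower in KR+ members as well, *Vegfa* at 101 CPM against 210.2 and 164 and *Ikzf2* at 94.97 against 173 and 169. *Mt2* was higher, at 84.6 CPM (79.5 to 89.9) against 42.0 (24.9 to 66.5) and 38.9 (27.8 to 52.9), but among cells of 10000 to 30000 UMIs it was at 50.2 against 60.2 and 34.3. *Gzmc* differed less between KR+ and KG+ members than between the KG+ libraries. With 14 and 37 KG+ members, differences of the size seen between these libraries set the limit of what could be told.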

How the data were processed

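Single cells were measured with the 10x Genomics 3′ v3 assay in 3 libraries of sorted tumor lymphocytes. The authors made the deposited UMI counts with Cell Ranger (version 6.1.2 in the submitters' processing notes, 6.0.1 in the matrix headers) on mm10, and the deposited counts were used as they stand, without normalization. The cells, gene lists and tests used here were chosen with earlier results of these data known. Of 32285 genes, 32158 (99.6%) were matched to GENCODE for coordinates.

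Barcodes entered if they held between 1000 and 6000 genes and their mitochondrial share lay below 7.5%, and groups were formed on UMI counts with the limits given in the report. UMIs were summed per group and library, so each comparison had 6 sums. Sums were tested with edgeR 4.0.16 (R 4.3.3; TMM, filterByExpr, quasi-likelihood test, library as a block, two-sided), with Benjamini-Hochberg adjustment over all genes tested at 0.05, and all adjusted p in the report are from this test. SEs are the log2 fold change over the root of F. Both groups of a comparison came from the same library, so pairing was by construction. The libraries are separate samples whose animals the labels do not describe. The p-values measure the spread between these samples only, which edgeR pools in part over genes. With 6 sums the size of a small p depends on that pooling. The 10 genes of the rule entered library sizes and were left out of the tests. With 14 and 37 members in the KG+ libraries, summed member UMIs were 428084, 1029332 and 12120094, which set the precision.

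Alternatives were DESeq2 1.42.0, no filter, no block, other thresholds, each library left out, cells thinned to 3000 UMIs and windows of UMIs. Doublets were sought with Scrublet (scanpy 1.11.5), which called 349 cells in the first Kaede-green library and 4 and 1 in the others, where it did not work. It called no member. The 6% of cells with the highest scores were therefore left out as an added alternative. Background was gauged in B cells (at least 2 *Cd79a* UMIs). Scripts were tested on simulated data. Genes were named from fixed lists, with the granzymes, textbook genes and up to 4 members of largest change, and outside the lists as the 12 largest rises and 12 largest falls past the threshold with the same sign in all 3 libraries and at least 20 CPM in 1 group. Upstream sequences are from RefSeq (GRCm38.p6).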

Additional observations from a re-analysis of the deposited data

Results flagged for a closer look

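Among named genes with at least 200 UMIs in members, and with a log2 ratio of at least 0.25 in size in each library, the difference between members and *Itga1*+ cells went in opposite directions by color for 2, and the difference between colors was not tested. *H2-Ab1*, a chain of the class II antigen-presenting complex, stood at 25.7, 47.6 and 16.3 CPM in members and at 278, 187 and 8.39 in *Itga1*+ cells, so its log2 ratio was -3.37 and -1.96 in the Kaede-green libraries and 0.94 in Kaede-red. The fitted log2 fold change was -1.08 ± 0.33 (adjusted p = 0.0292, edgeR), which did not pass without the first Kaede-green library. It was past the threshold in 8 of 17 alternatives and not with thinned cells (adjusted p = 0.876, edgeR). The 15 myeloid markers, of which *H2-Ab1* is 1, summed to 1110, 884 and 89.4 CPM in the same *Itga1*+ cells, and their part in this was not tested. *Egr1*, an immediate early gene, stood at 7.01, 35.9 and 47.4 CPM in members and at 25.4, 51.9 and 37.5 in *Itga1*+ cells, with log2 ratios of -1.65 and -0.52 in the Kaede-green libraries and 0.34 in Kaede-red.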

How the results depend on the processing

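Against *Itga1*+ cells, DESeq2 called 285 genes higher and 324 lower, thinned cells gave 146 and 311, cells of 10000 to 30000 UMIs 71 and 66, and cells of 20000 to 30000 UMIs 7 and 2. Without the replicate block 349 genes were higher. Leaving out 1 library gave 295 to 569 higher and 446 to 608 lower, the lowest without the second Kaede-green library, and with thinned cells 45 to 131 and 93 to 166. Against *Itga1*- cells, the counts were 696 and 797 (DESeq2), 282 and 572 (thinned), 243 and 359 (10000 to 30000 UMIs), 38 and 39 (20000 to 30000 UMIs) and, with a library left out, 503 to 1038 and 835 to 1413. The share of Kaede-red NK-gate cells that were members was 18.3% at 10 UMIs, 14.1% at 40, 18.1% thinned and 14.4% with *Cd3e* and *Cd8b1* at 0. Among cells of 20000 to 30000 UMIs, 819 of the 1086 genes that had passed with all cells and were tested there kept their sign. The genes picked for naming did not include every list gene, and 110 of them passed. Of these 110, none changed sign except in that window, where 17 of those tested did: *Prf1* (-0.10), *Fasl* (0.0003), *Serpinb9* (0.12), *Ifng* (0.031), *Cd69* (0.14), *Hcst* (0.14), *Klf2* (0.30), *Maf* (0.12), *Runx3* (0.088), *Ldha* (-0.025), *Sdf2l1* (-0.11), *Ifitm1* (-0.29), *Tyms* (-0.12), *Bcl2* (0.055), *Bcl2a1b* (-0.015), *Itgax* (0.040) and *Avil* (-0.19). The cause was not tested, though fewer cells entered. The 20000 to 30000 window and the Scrublet score limit were chosen after seeing the data. That window kept 7 of these calls and lost 63 more without a change of sign, the others not being tested there, the window of 10000 to 30000 UMIs kept 47 and lost 60, thinning lost 32, dropping the block 12 and DESeq2 11, with 83 kept and no adjusted p from DESeq2 for the others. The limits are the 14 and 37 KG+ members, the single KR+ library and the depth gap between groups.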
